A study of Rattus norvegicus with 9 samples.

Results

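The glucocorticoid receptor gene Nr3c1 and 9 of its target genes (Fkbp5, Tsc22d3, Sgk1, Zbtb16, Pdk4, Klf9, Hif3a, Errfi1 and Dusp1) were examined in rat dorsal root ganglia (DRGs), the ganglia that hold the cell bodies of sensory neurons. The members were taken by gene symbol from the deposited table, and all 10 were found among its 20413 genes. Ipsilateral L4-6 DRGs of male Sprague Dawley rats aged 8 to 10 weeks were collected on day 10 from 3 groups of 3 rats, with 1 RNA-Seq library per rat. In the chronic post-ischemia pain (CPIP) group, a tight O-ring around the ankle blocked the blood flow of the hind paw for 3 h under anesthesia. Sham rats, labelled Con in the repository, received the same anesthesia and a cut O-ring that left the flow open. CPIP+EA rats had the same injury and were then given electroacupuncture (EA) at 100 Hz for 30 min once daily on 10 days, with needles on both sides and the rats loosely immobilized. All 3 groups were anesthetized again and perfused with saline at collection. No group with immobilization or needles alone is among the 9 libraries, and the hour of collection is not given in the sources used here.

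Glucocorticoids, of which corticosterone is the main one in rats, are released by the adrenal gland in a daily rhythm and in response to stress. The receptor waits in the cytoplasm in a complex with heat shock protein 90 and its helpers, and after binding the hormone it enters the nucleus. There it binds glucocorticoid response elements, paired copies of a short half-site, and raises the transcription of genes that restrain inflammation, shift fuel use and limit the hormone's own signal. Several of these genes are also induced by other stimuli, among them growth factors, cyclic AMP and neuronal activity.

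Levels are given as FPKM, fragments scaled to transcript length and to the mapped fragments of the library, which can be compared between genes. Differences are log2 fold changes of FPKM + 0.5 from limma, fitted across 17187 genes, and understate the change of low genes such as Hif3a. A gene was called at the threshold of the study, which asks for a change of 1.5-fold in either direction and an adjusted p (Benjamini-Hochberg, over all genes tested) under 0.01. In 23 low genes whose values moved in whole steps, the value of 1 read relative to the median library lay between 0.9998 and 1.0067. Genes were kept only where every library lay close to such steps, so this range could not show a larger difference in depth. The study lists similar numbers of clean reads for all libraries. FPKM sums lay between 445647 and 482940. All 6 sensory neuron markers, such as Uchl1 at 1488.08 to 1920.1 FPKM, were present in every library, the lowest being Rbfox3 at 27.47 to 57.33 FPKM. Hemoglobin and neutrophil transcripts were present too, and CPIP+EA replicate 3 had the highest sums of both lists. In such bulk tissue, fewer cells of a type and less RNA per cell cannot be told apart.

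All 10 members were detected in each of the 9 libraries. The highest was Tsc22d3, at 113.74 to 156.88 FPKM, whose range did not meet that of any other member. Below it came Klf9 (mean of 19.1 FPKM over the 9 libraries), Sgk1 (16.2), Nr3c1 (13.6), Dusp1 (13.3), Errfi1 (9.96) and Fkbp5 (9.77), and in this run of levels each gene's range overlapped with that of the next. Pdk4 (3.43 FPKM) and Zbtb16 (2.35 FPKM) overlapped with each other and lay below all of these. Hif3a, at 0.24 to 0.88 FPKM, was the lowest. The members differed widely in how steady they were. The coefficient of variation over the 9 libraries was 6.49% for Nr3c1 and 8.55% for Fkbp5, against 29.5% for Errfi1, 37.5% for Sgk1 and 52.8% for Hif3a.

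**Figure D1:**
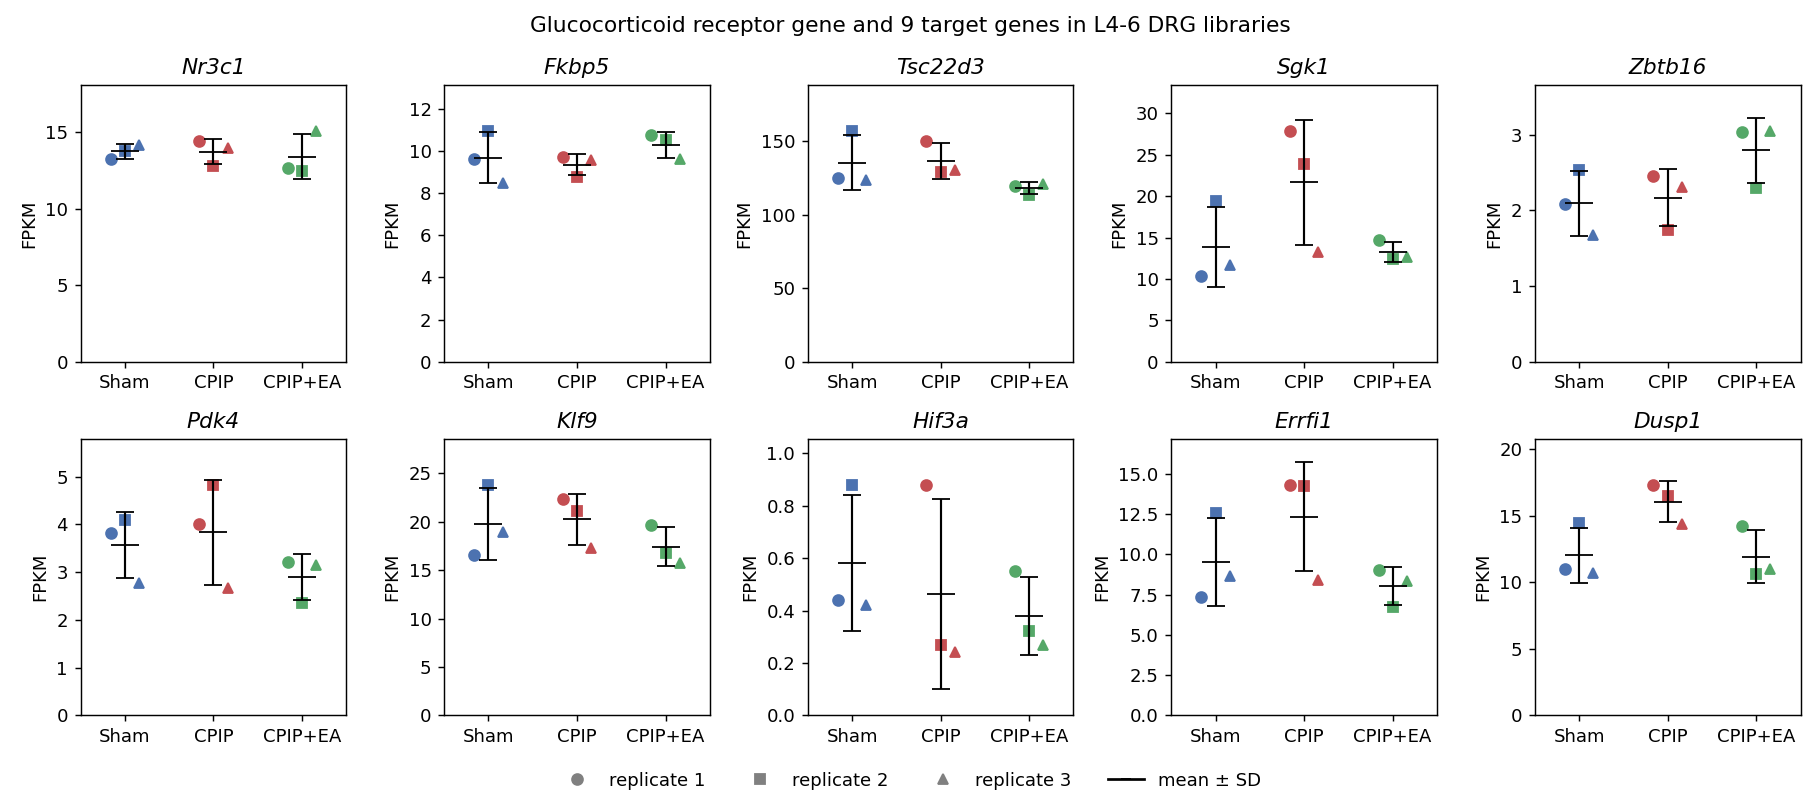
FPKM of the 10 members (vertical axes, each from 0) in the Sham, CPIP and CPIP+EA groups; each point is 1 library, its shape gives the replicate, and bars are the mean ± SD of 3 libraries. Nr3c1 and Fkbp5 stay within a narrow band, whereas Sgk1, Errfi1, Klf9 and Hif3a are high in Sham replicate 2 and CPIP replicate 1.

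None of the 10 members passed the threshold in any comparison. Between CPIP and Sham 0 of 10 passed, where 0.355% of all genes tested did, and 1 of 10 (Dusp1, higher in CPIP) had an unadjusted limma p under 0.05, against 8.66% of all genes. Between CPIP+EA and CPIP 0 of 10 passed, as did 0% of all genes, and 2 of 10 (Dusp1 and Errfi1, both lower in CPIP+EA) were under 0.05, against 4.29% of all genes and 2.07% in that direction. Against Sham, CPIP+EA showed 0 members past the threshold, which 0.483% of all genes passed, and 0 with an unadjusted p under 0.05, which 12.2% had. The 3 values of the groups compared did not overlap for 0 members between CPIP and Sham (15.9% of all genes), 2 between CPIP+EA and CPIP (8.23%) and 1 between CPIP+EA and Sham (16.2%). In a moderated F test over the 3 groups, Dusp1 had the smallest p of the members, 0.0259 unadjusted and 0.431 adjusted, where 9.44% of all genes were under 0.05. The median log2 fold change of the 10 members was 0.04 between CPIP and Sham, -0.21 between CPIP+EA and CPIP and -0.10 between CPIP+EA and Sham, with -0.01, 0.01 and 0.00 over all genes tested. Any 2 of the 3 comparisons share a group of libraries, so that these values are not independent of each other.

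**Figure D2:**
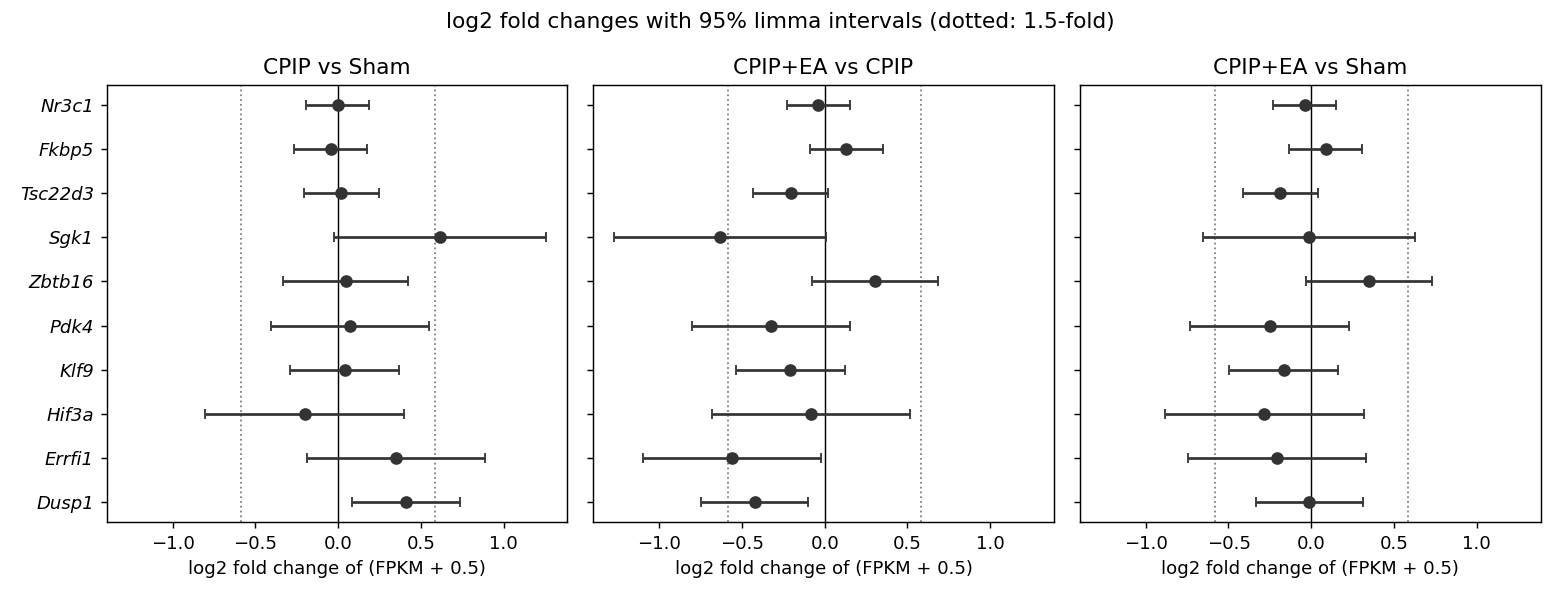
log2 fold changes of FPKM + 0.5 (horizontal axes) for the 10 members in the 3 comparisons; points are limma estimates, bars are 95% limma intervals and dotted lines mark a 1.5-fold change. The intervals of Nr3c1 and Fkbp5 lie inside the dotted lines in all 3 panels, and those of Sgk1 reach beyond them.

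The receptor gene itself was at nearly the same level in the 3 groups. Nr3c1 had 13.24, 13.79 and 14.17 FPKM in Sham, 14.39, 12.81 and 13.96 in CPIP rats, followed by 12.63, 12.46 and 15.06 in CPIP+EA rats. The groups overlapped fully, with the lowest and the highest library both in CPIP+EA. Its log2 fold change was -0.002 between CPIP and Sham (95% limma interval -0.19 to 0.19) and -0.04 between CPIP+EA and CPIP (-0.23 to 0.15). A 1.5-fold change of the receptor transcript is outside both intervals.

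Fkbp5 encodes an immunophilin that binds the receptor complex and lowers its affinity for hormone, and it is a widely used readout of receptor activity. It had 9.62, 10.94 and 8.5 FPKM in Sham, 9.71, 8.78 and 9.55 in CPIP rats, followed by 10.74, 10.53 and 9.6 in CPIP+EA rats. The highest and the lowest library were both Sham libraries, and no group stood apart. Its log2 fold change was -0.04 between CPIP and Sham (-0.26 to 0.18), 0.13 between CPIP+EA and CPIP (-0.09 to 0.35) and 0.09 between CPIP+EA and Sham (-0.13 to 0.31). The last was 0.0025 without Sham replicate 3 and 0.18 without Sham replicate 2.

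Tsc22d3 and Dusp1 encode anti-inflammatory effectors. Tsc22d3 gives GILZ, a leucine zipper protein that restrains inflammatory transcription factors, and Dusp1 gives a phosphatase that switches off MAP kinases. Tsc22d3 had 125.23, 156.88 and 123.8 FPKM in Sham, 150.41, 128.85 and 130.37 in CPIP rats, followed by 119.81, 113.74 and 120.87 in CPIP+EA rats. The CPIP+EA libraries were the 3 lowest of all 9, and did not overlap with CPIP or with Sham. The log2 fold change was -0.20 between CPIP+EA and CPIP (standard error 0.10, unadjusted limma p of 0.0714, adjusted p of 0.996) and -0.19 between CPIP+EA and Sham (standard error 0.10, unadjusted limma p of 0.0957, adjusted p of 0.507). The latter shrank to -0.076 without Sham replicate 2, and the former to -0.13 without CPIP replicate 1. Groups that did not overlap in this direction were found for 3.4% of all genes in the former comparison and 7.32% in the latter.

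Dusp1 had 11.02, 14.43 and 10.67 FPKM in Sham, 17.34, 16.52 and 14.36 in CPIP rats, followed by 14.22, 10.6 and 10.97 in CPIP+EA rats. All 3 CPIP libraries were above all 3 CPIP+EA libraries, whereas Sham replicate 2 was above CPIP replicate 3. The log2 fold change was 0.41 between CPIP and Sham (standard error 0.14, unadjusted limma p of 0.0186, adjusted p of 0.413). It was -0.42 between CPIP+EA and CPIP (standard error 0.14, unadjusted limma p of 0.0163, adjusted p of 0.996) and -0.01 between CPIP+EA and Sham. Over the main fit and 20 alternatives, the adjusted limma p between CPIP and Sham lay between 0.259 and 0.743.

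Sgk1 and Errfi1 act in kinase signalling. Sgk1 encodes a serine/threonine kinase that raises ion channel and transporter activity at the cell surface, and Errfi1 (also called Mig6) encodes an inhibitor of the epidermal growth factor receptor. Sgk1 had 10.41, 19.37 and 11.67 FPKM in Sham, 27.85, 23.89 and 13.29 in CPIP rats, followed by 14.64, 12.41 and 12.63 in CPIP+EA rats. In CPIP, replicates 1 and 2 were above every other library, and replicate 3 lay among the CPIP+EA values. The SD of 7.53 FPKM in CPIP compares with 1.23 FPKM in CPIP+EA (n = 3 each). Its log2 fold change was 0.62 between CPIP and Sham (-0.02 to 1.26, unadjusted limma p of 0.0572, adjusted p of 0.605) and -0.63 between CPIP+EA and CPIP (-1.27 to 0.01, unadjusted limma p of 0.0530, adjusted p of 0.996). These estimates exceeded 1.5-fold, which 1.98% of all genes did upward in the former comparison and 0.884% did downward in the latter. Without CPIP replicate 3 they were 0.93 and -0.94, and without CPIP replicate 1 they were 0.41 and -0.42.

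Errfi1 had 7.33, 12.58 and 8.67 FPKM in Sham, 14.32, 14.25 and 8.42 in CPIP rats, followed by 9.02, 6.75 and 8.31 in CPIP+EA rats. The same 3 libraries as for Sgk1 stood above the rest, CPIP replicates 1 and 2 and Sham replicate 2, and the remaining 6 libraries lay between 6.75 and 9.02 FPKM. Its log2 fold change was 0.35 between CPIP and Sham (-0.19 to 0.89) and -0.56 between CPIP+EA and CPIP (-1.10 to -0.02, unadjusted limma p of 0.0429, adjusted p of 0.996). Leaving out 1 library moved the former to between 0.19 (without Sham replicate 1) and 0.59 (without CPIP replicate 3), and the latter to between -0.80 (without CPIP replicate 3) and -0.44 (without CPIP replicate 1).

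Zbtb16, Klf9 and Hif3a encode transcriptional regulators. Zbtb16 (PLZF) is a zinc finger repressor, Klf9 is a Krüppel-like factor linked to neuronal maturation and the circadian clock, and Hif3a is a member of the hypoxia-inducible factor family that can oppose the others. Zbtb16 had 2.08, 2.53 and 1.67 FPKM in Sham, 2.46, 1.74 and 2.31 in CPIP rats, followed by 3.04, 2.3 and 3.05 in CPIP+EA rats. CPIP+EA replicates 1 and 3 were the highest of the 9, and replicate 2 fell among the other groups. Zbtb16 had a log2 fold change of 0.31 between CPIP+EA and CPIP (-0.07 to 0.69) and 0.35 between CPIP+EA and Sham (-0.03 to 0.73, unadjusted limma p of 0.0663, adjusted p of 0.449), and these were 0.18 without CPIP replicate 2 and 0.23 without Sham replicate 3.

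Klf9 had 16.56, 23.83 and 18.89 FPKM in Sham, 22.32, 21.11 and 17.3 in CPIP rats, followed by 19.7, 16.81 and 15.78 in CPIP+EA rats. Sham replicate 2 and CPIP replicates 1 and 2 were again the highest, and the groups overlapped. The log2 fold change was 0.04 between CPIP and Sham (-0.29 to 0.37) and -0.21 between CPIP+EA and CPIP (-0.54 to 0.12, -0.31 without CPIP replicate 3 and -0.14 without CPIP replicate 1). Hif3a had 0.44, 0.88 and 0.42 FPKM in Sham, 0.88, 0.27 and 0.24 in CPIP rats, followed by 0.55, 0.32 and 0.27 in CPIP+EA rats. Its value of 0.88 was reached in Sham replicate 2 and CPIP replicate 1, and its log2 fold changes, between -0.28 and -0.08, had intervals that spanned 0 in all 3 comparisons. With 1 library left out they ran from -0.49 (without CPIP replicate 1) to -0.0108 (without Sham replicate 2) between CPIP and Sham, and from -0.42 (without CPIP+EA replicate 1) to -0.0929 (without Sham replicate 2) between CPIP+EA and Sham.

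Pdk4 encodes a mitochondrial kinase that inhibits pyruvate dehydrogenase and turns cells from glucose to fatty acid oxidation. It had 3.82, 4.1 and 2.78 FPKM in Sham, 4.01, 4.83 and 2.66 in CPIP rats, followed by 3.22, 2.35 and 3.14 in CPIP+EA rats. The log2 fold change was 0.07 between CPIP and Sham (-0.40 to 0.55) and -0.33 between CPIP+EA and CPIP (-0.80 to 0.15), with a wide spread in CPIP. The latter was -0.54 without CPIP replicate 3 and -0.16 without CPIP replicate 2, and the former -0.0923 without CPIP replicate 2 and 0.28 without CPIP replicate 3.

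The larger pattern lay between single libraries and crossed the groups. Sham replicate 2 was among the 3 highest of the 9 libraries for all 9 targets, CPIP replicate 1 for 7 of them and CPIP replicate 2 for 5. Sham replicates 1 and 3 were among the 3 highest for 0 of them, CPIP replicate 3 and CPIP+EA replicates 2 and 3 for 1 each, and CPIP+EA replicate 1 for 3. The mean z-score of the 9 targets was 1.08 in both Sham replicate 2 and CPIP replicate 1, 0.31 in CPIP replicate 2 and 0.25 in CPIP+EA replicate 1. It was below 0 in the other 5 libraries, between -0.74 in Sham replicate 3 and -0.36 in CPIP replicate 3. Each group therefore held libraries above and below the mean. Nr3c1 did not follow this order, with its highest z-score, 1.59, in CPIP+EA replicate 3.

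**Figure D3:**
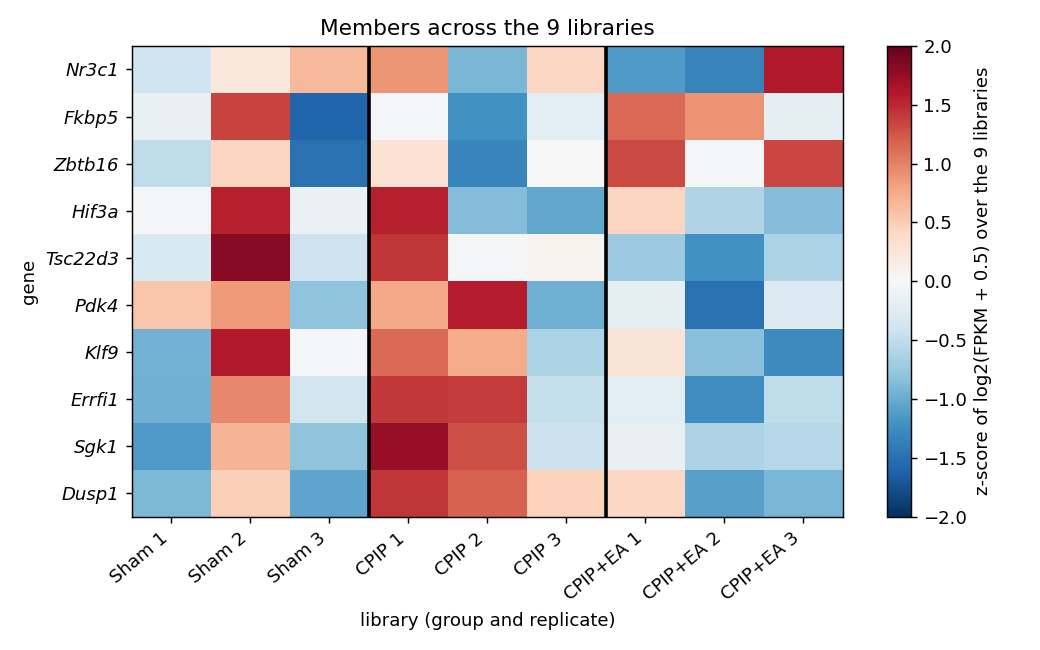
z-scores of log2(FPKM + 0.5) over the 9 libraries for the 10 members (rows) in each library (columns), with black lines between the groups; red is above and blue below the gene's mean. Sham replicate 2 and CPIP replicate 1 are red in most of the 9 targets, and CPIP+EA replicate 2 is blue in most.

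Among the 45 pairs of members, 36 had a positive and 9 a negative Pearson r over the 9 libraries. In exact two-sided permutation tests over the pairings of libraries, 14 pairs had an unadjusted p under 0.05 and 4 an adjusted p under 0.05 (Benjamini-Hochberg over the 45 pairs), all 4 positive and all among Sgk1, Errfi1, Dusp1 and Klf9. For Sgk1 and Errfi1, r was 0.95 and Spearman's rho 0.87 (exact permutation p of 0.000579 for r and 0.00451 for rho, n = 9, adjusted p of 0.0130 for r). For Sgk1 and Dusp1, r was 0.89 and rho 0.87 (exact permutation p of 0.000223 and 0.00451, n = 9, adjusted p of 0.010 for r). Errfi1 and Dusp1 had an r of 0.86 and a rho of 0.85 (exact permutation p of 0.00166 and 0.00607, n = 9, adjusted p of 0.0248 for r), and Klf9 and Errfi1 an r of 0.87 and a rho of 0.88 (exact permutation p of 0.00300 and 0.00307, n = 9, adjusted p of 0.0338 for r). On ranks, 0 of the 45 pairs had an adjusted exact permutation p under 0.05.

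Leaving out the 2 libraries farthest from the median of the first gene of each pair showed how far these relations rested on single libraries. For the 3 pairs among Sgk1, Errfi1 and Dusp1 these were CPIP replicates 1 and 2 in each case. Without them r was 0.88 for Sgk1 and Errfi1, 0.75 for Sgk1 and Dusp1 and 0.67 for Errfi1 and Dusp1, with adjusted exact permutation p-values of 0.257, 0.257 and 0.389 (n = 7, unadjusted 0.0214, 0.0157 and 0.0605). The first r stayed close to its value over all 9 libraries, and the call over the 45 pairs was lost for each of the 3 pairs. For Klf9 and Errfi1, r was 0.94 without Sham replicate 2 and CPIP+EA replicate 3 (adjusted exact permutation p of 0.0268, n = 7). When each group's mean was first taken away, r was 0.96, 0.81, 0.82 and 0.89 for the 4 pairs in the same order, as a description of pairs chosen for their r over the same 9 libraries. With only 216 exact permutations within groups, which the smallest possible p of 0.00463 reflects, 8 of the 45 pairs had an unadjusted exact p under 0.05 and 0 an adjusted one.

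**Figure D4:**
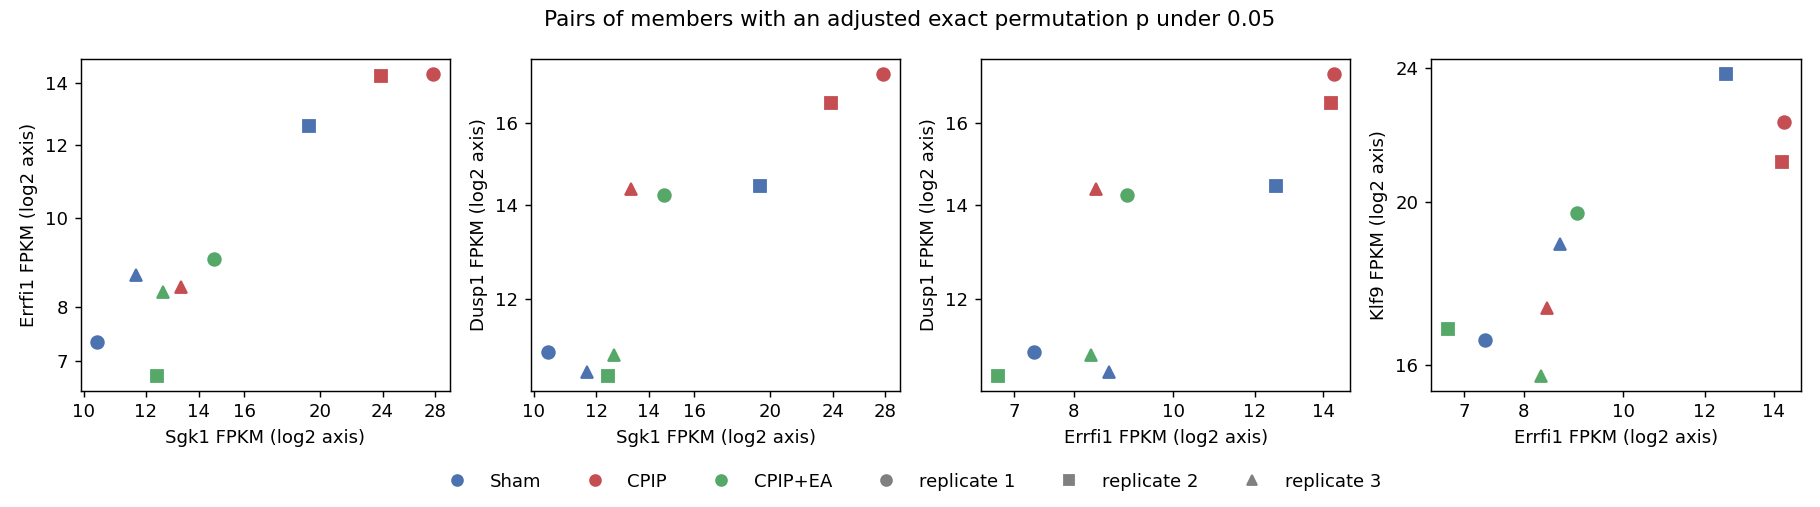
FPKM of 1 member against another (both axes on a log2 scale) for the 4 pairs with an adjusted exact permutation p under 0.05; each point is 1 of the 9 libraries, colour gives the group and shape the replicate. CPIP replicates 1 and 2 and Sham replicate 2 lie at the upper right in the 4 panels, and CPIP replicate 3 lies with the lower libraries for Sgk1, Errfi1 and Klf9.

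Fkbp5 and Zbtb16 formed a looser pair, with an r of 0.73 and a rho of 0.62 (exact permutation p of 0.0263 and 0.0857, n = 9, adjusted p of 0.101 for r), and an r of 0.64 without Sham replicates 2 and 3. Of all 13913 other genes with a mean of at least 1 FPKM, those most like Nr3c1 over the 9 libraries, as a description with no test, were Tmem128 (r = 0.97), Ggh (r = 0.95), Dtwd2 (r = 0.95), Smim15 (r = 0.93) and Lrrc40 (r = 0.93). Those most like Fkbp5 were Mad2l1bp (r = 0.94), LOC100910575 (r = 0.93), Ctrl (r = 0.91), Lars (r = 0.90) and Ttc37 (r = 0.90). Those most like the mean z-score of the 9 targets were Cbx8 (r = 0.91), Apold1 (r = 0.91), Klf9 (r = 0.89), Fip1l1 (r = 0.87) and Sgk1 (r = 0.87), of which Klf9 and Sgk1 are themselves part of that mean. Apold1, which encodes an endothelial protein induced early by stimulation, had 0.82, 3.96 and 1.66 FPKM in Sham, 5.37, 2.2 and 1.06 in CPIP rats, followed by 1.71, 1.12 and 1.13 in CPIP+EA rats.

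Sequence before the start sites is shown for Klf9, Errfi1 and Dusp1, the genes of these correlated pairs whose windows held a searched motif. RefSeq (rat assembly GRCr8) gave 15 promoter windows, from 250 bases before to 50 after a start, for 9 of the 10 members, and none for Zbtb16. A paired glucocorticoid response element (GNACA and TGTNC with 3 bases between them) was found in 0 of the 15 windows, and in 0.439% of all 33469 rat windows, and the half-site AGAACA in 0 of 15, against 20.7% of all windows, searched on both strands. The half-site TGACG, which factors of the CREB family can bind, was searched after the values were seen and was in 4 windows (26.7%), those of Klf9, Errfi1, Dusp1 and 1 of the 3 of Tsc22d3, against 21.2% of all windows. The full site TGACGTCA, which contains TGACG, was in 1 window, that of Dusp1 (1.83% of all windows), as was the E-box CACGTG (6.42% of all windows), both motifs also searched after the values were seen. Each stretch is on the + strand and in the direction of its gene, with the matched letters in capitals (CGTCA is TGACG read on the other strand).
Klf9, chr1:230126555-230126584: gggcctggattgTGACGtgatgggattctg
Errfi1, chr5:166606773-166606802: ggcgggcgtcgaCGTCAcgttgtcggctcg
Dusp1, chr10:17184726-17184755: gggTGACGTCAccacccggtCACGTGtccg
A match describes letters only, and the windows leave out distant elements.

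Other genes of the pathway were described from fixed lists. Of 6 genes of hormone supply and the related receptor Nr3c2, 0 passed the threshold. Hsd11b1, whose enzyme regenerates active glucocorticoid from its inert form inside cells, had 3.95, 4.35 and 4.18 FPKM in Sham, 3.69, 2.98 and 2.36 in CPIP rats, followed by 2.09, 3.01 and 3.16 in CPIP+EA rats. Every Sham library was above every library of the injured groups. Groups did not overlap for 15.9% of all genes between CPIP and Sham and for 16.2% between CPIP+EA and Sham. The log2 fold change was -0.43 between CPIP and Sham (unadjusted limma p of 0.0340, adjusted p of 0.513) and -0.53 between CPIP+EA and Sham (unadjusted limma p of 0.0120, adjusted p of 0.233). Hsd11b2, whose enzyme inactivates the hormone, was at 0.54 to 0.65 FPKM in Sham, 0.27 to 0.43 in CPIP and 0.1 to 0.42 in CPIP+EA, with an unadjusted limma p of 0.0209 and an adjusted p of 0.298 between CPIP+EA and Sham.

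Of the 12 chaperones of the receptor complex, among them Hsp90aa1 at 940.78 to 1100.25 FPKM and Fkbp4 at 126.3 to 163.06 FPKM (both chosen after their values were seen), 0 passed the threshold and 0 had an unadjusted limma p under 0.05 in any comparison. Of 10 coregulators 0 passed the threshold. Nrip1, a corepressor of nuclear receptors, had 6.72, 6.43 and 6.5 FPKM in Sham, 8.29, 8.05 and 8.66 in CPIP rats, followed by 8.89, 9.48 and 8.07 in CPIP+EA rats. All injured libraries were above all Sham libraries. The log2 fold change was 0.32 between CPIP and Sham (standard error 0.08, limma adjusted p of 0.144) and 0.40 between CPIP+EA and Sham (standard error 0.08, limma adjusted p of 0.0470), below 1.5-fold in both. The coactivator Crebbp had a log2 fold change of -0.26 between CPIP+EA and Sham (unadjusted limma p of 0.0217, adjusted p of 0.302).

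All 25 other genes listed as induced by the receptor were in the table. Between CPIP and Sham, 1 of the 25 passed the threshold and 5, all higher in CPIP, had an unadjusted limma p under 0.05 (4.61% of all genes did in that direction). The 1 was Cdkn1a, a cell cycle inhibitor that is also induced by p53 and by nerve injury. It rose from 3.67, 3.63 and 3.95 FPKM in Sham to 8.69, 11.51 and 10.04 in CPIP, and had 12.36, 9.22 and 8.93 in CPIP+EA. Its log2 fold change was 1.31 between CPIP and Sham (standard error 0.14, limma adjusted p of 0.00257, with alternatives from 0.00133 to 0.0204) and 1.31 between CPIP+EA and Sham (standard error 0.14, limma adjusted p of 0.00201, with alternatives from 0.00130 to 0.0162). The call between CPIP and Sham was lost in 6 of 20 alternatives, the replicate block (adjusted p of 0.0204) and the fits without any 1 Sham library or without CPIP replicate 2 or 3 (adjusted p up to 0.0168), at log2 fold changes between 1.21 and 1.34. The call between CPIP+EA and Sham was lost in 5, the replicate block (adjusted p of 0.0162) and the fits without any 1 Sham library or without CPIP+EA replicate 2 (adjusted p up to 0.0141).

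The other 4 were Rasd1, Ddit4, Mt1 and, chosen after its values were seen, Nfkbia. Rasd1, a dexamethasone-induced Ras-related gene, had a log2 fold change of 0.72 (limma adjusted p of 0.243). Ddit4, an inhibitor of mTOR signalling, had 27.2, 51.02 and 42.25 FPKM in Sham, 71.32, 71.9 and 47.95 in CPIP rats, followed by 49.24, 41.9 and 38.23 in CPIP+EA rats. From Sham to CPIP its log2 fold change was 0.68 (limma adjusted p of 0.391), and 0.43 without Sham replicate 1. Nfkbia, which encodes the inhibitor of NF-κB, and the metallothionein gene Mt1 had log2 fold changes of 0.67 and 0.53 (limma adjusted p of 0.517 and 0.468), and that of Nfkbia was 0.44 without Sham replicate 1. Nfkbia had 25.13 and 25.52 FPKM in CPIP replicates 1 and 2, 13.32 in CPIP replicate 3 and at most 16.46 in the other groups. With CPIP+EA set against CPIP, 0 of the 25 passed and 3, all lower in CPIP+EA, were under an unadjusted limma p of 0.05 (2.07% of all genes in that direction, and 0% past the threshold): Glul (log2 fold change of -0.21), Mt1 (-0.48) and Ddit4 (-0.54). Between CPIP+EA and Sham, 3 of the 25 were higher (Cdkn1a, Anxa1 and Rasd1) and 2 lower (Glul and, chosen after its values were seen, Foxo1) at an unadjusted limma p under 0.05, where 6.59% and 5.63% of all genes were. Anxa1, which encodes the anti-inflammatory protein annexin A1, had 43.99, 66.01 and 46.81 FPKM in Sham, 66.24, 75.56 and 53.36 in CPIP rats, followed by 71.37, 68.25 and 94.56 in CPIP+EA rats. All 3 CPIP+EA libraries lay above the Sham libraries, at a log2 fold change of 0.58 (limma adjusted p of 0.237). Groups did not overlap for 16.2% of all genes in that comparison. Foxo1, which encodes a forkhead transcription factor, had a log2 fold change of -0.26 (limma adjusted p of 0.347).

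Per1, a core clock gene that carries a glucocorticoid response element and is also induced by cyclic AMP, is given after its values were seen. It had 7.81, 23.85 and 11.5 FPKM in Sham, 26.11, 26.7 and 14.47 in CPIP rats, followed by 12.69, 14.56 and 10.64 in CPIP+EA rats. The same 3 libraries, Sham replicate 2 and CPIP replicates 1 and 2, were the highest as for Sgk1, Errfi1 and Klf9. Per1 had a log2 fold change of 0.72 between CPIP and Sham (unadjusted limma p of 0.0831, adjusted p of 0.676) and -0.76 between CPIP+EA and CPIP (unadjusted limma p of 0.0684, adjusted p of 0.996). The former was 0.37 without Sham replicate 1 and 1.15 without Sham replicate 2.

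**Figure D5:**
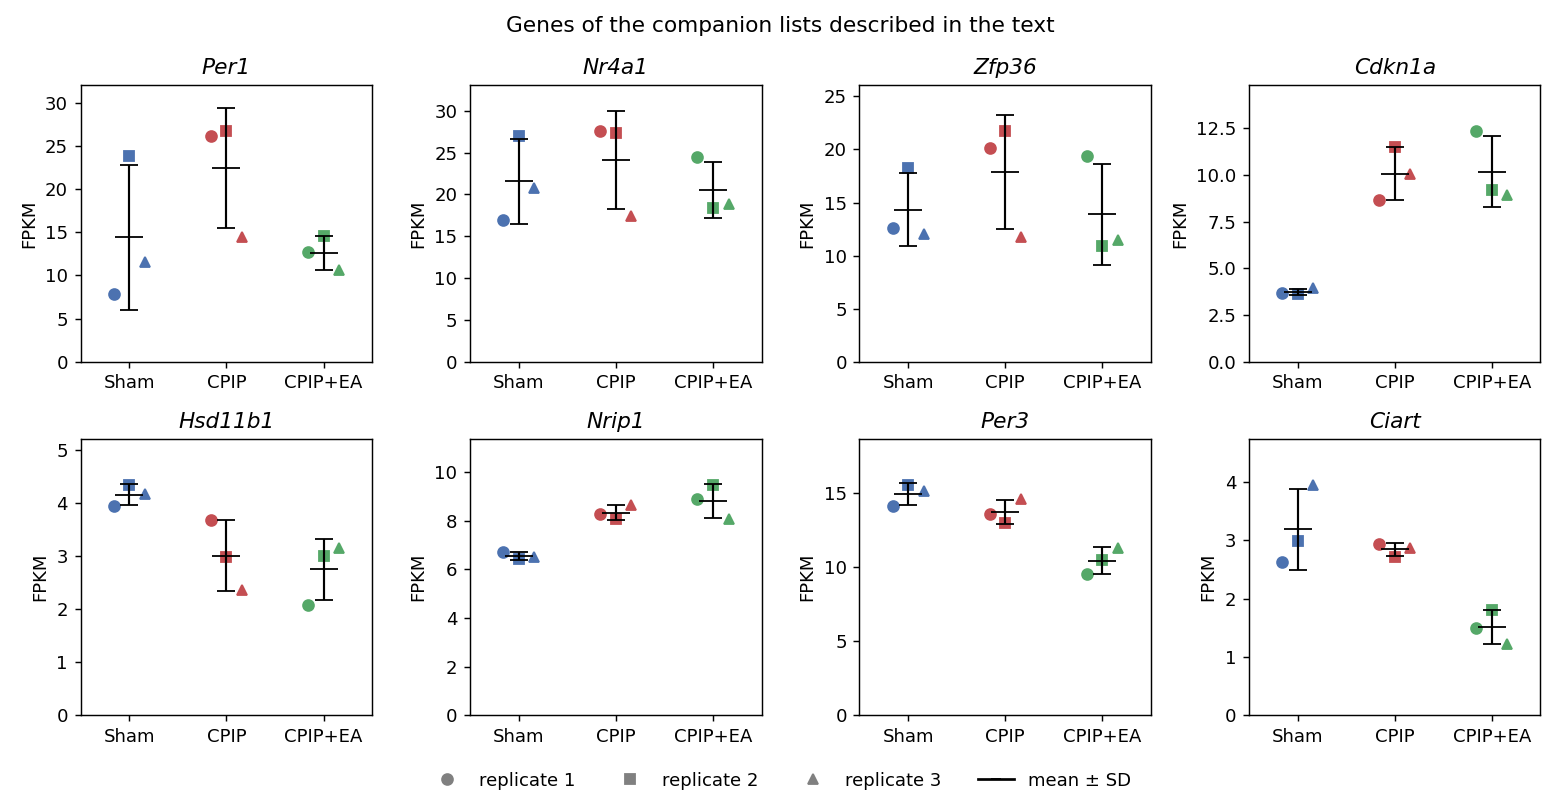
FPKM of 8 other genes (vertical axes, each from 0) in the 3 groups; points are libraries, shape gives the replicate and bars are the mean ± SD of 3 libraries. Per1, Nr4a1 and Zfp36 are high in Sham replicate 2 and in CPIP replicates 1 and 2, Cdkn1a separates Sham from both injured groups, and Per3 and Ciart are lowest in CPIP+EA.

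Of 12 genes that the receptor is known to restrain, mostly cytokines and inflammatory enzymes, 10 could be tested and 0 passed the threshold. Between CPIP and Sham, 5 of the 10 had a log2 fold change above 0 and 5 below, with a median of 0.0407 (-0.0064 over all genes). An unadjusted limma p under 0.05 was found for 2, both higher in CPIP, against 4.61% of all genes in that direction. The 2 were Ccl2 and Il6. Ccl2, a chemokine that draws monocytes, had 15.11, 24.98 and 22.27 FPKM in Sham, 30.99, 31.58 and 32.96 in CPIP rats, followed by 30.01, 28.58 and 23.31 in CPIP+EA rats, a log2 fold change of 0.63 between CPIP and Sham (limma adjusted p of 0.198). Il6 was at 0 to 0.06 FPKM in Sham, 0.12 to 0.66 in CPIP and 0.53 to 0.95 in CPIP+EA, with log2 fold changes of 0.66 between CPIP and Sham, 0.56 between CPIP+EA and CPIP and 1.22 between CPIP+EA and Sham (limma adjusted p of 0.389, 0.996 and 0.0359). The first was 0.44 without CPIP replicate 3. The fold change between CPIP+EA and CPIP was 0.33 without CPIP replicate 1, and its unadjusted limma p, 0.0336, ran from 0.00432 to 0.128 over the alternatives. In the same order, the 3 fold changes of Il6 were 1.64, 1.0 and 2.64 at a pseudocount of 0.1 and 0.39, 0.37 and 0.76 at a pseudocount of 1. Icam1 and Cxcl1, chosen after their values were seen, were among the 5 below 0. Icam1, an adhesion molecule that leukocytes bind, had 4.63, 5.56 and 4.52 FPKM in Sham, 2.77, 4.02 and 4.28 in CPIP rats, followed by 4.74, 3.09 and 5.3 in CPIP+EA rats. Each CPIP library lay below each Sham library, where groups did not overlap for 15.9% of all genes. The log2 fold change was -0.38 (limma adjusted p of 0.699), and -0.21 without CPIP replicate 1. Cxcl1, a chemokine that draws neutrophils, had a log2 fold change of -0.55 between CPIP and Sham (limma adjusted p of 0.747), and -0.15 without Sham replicate 2, the library with its highest value.

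Values of other gene groups are given beside the members, whether or not they moved with them. Their part in the members' values was not tested. Among 13 immediate early genes, Atf3 and Jun, both part of the response of sensory neurons to axon injury, passed the threshold between CPIP and Sham. Of all genes tested, 0.355% passed it. The log2 fold changes were 3.21 for Atf3 and 0.85 for Jun (limma adjusted p of 1.19e-05 and 0.00694). The Jun call was lost in 14 of 20 alternatives, with adjusted p up to 0.0423 and log2 fold changes between 0.74 and 0.93, and 8 of the 9 fits without 1 library were among them (all but the one without CPIP+EA replicate 1). Atf3 and Jun were highest in CPIP+EA replicates 2 and 1, and not in the libraries highest for Sgk1, Errfi1 and Klf9. Those were Sham replicate 2 and CPIP replicates 1 and 2. Nr4a1 and Zfp36, chosen after their values were seen, were high in them. Nr4a1, an orphan nuclear receptor, was at 27 FPKM in Sham replicate 2 and at 27.58 and 27.38 in CPIP replicates 1 and 2, with 16.95 to 24.43 elsewhere. Zfp36, whose protein destabilizes cytokine mRNAs, was at 18.27, 20.15 and 21.73 in the same 3 libraries, and at 19.4 in CPIP+EA replicate 1.

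All 15 clock genes were tested. Between CPIP+EA and CPIP, 6 of them were lower (Ciart, Per3, Per2, Dbp, Hlf and Tef) and 1 higher (Arntl, all 7 named after their values were seen) at an unadjusted limma p under 0.05, against 2.07% and 2.22% of all genes in these directions, and 0 passed the threshold. Between CPIP and Sham, 1 was lower and 0 higher at that p, against 4.06% and 4.61% of all genes. Between CPIP+EA and Sham, 7 were lower, that 1 among them, and 1 higher, against 5.63% and 6.59%. Per3 had 14.12, 15.59 and 15.16 FPKM in Sham, 13.61, 12.99 and 14.64 in CPIP rats, followed by 9.53, 10.53 and 11.31 in CPIP+EA rats, with log2 fold changes of -0.38 (limma adjusted p of 0.944) and -0.50 (limma adjusted p of 0.0194) against CPIP and Sham. In Per3, Ciart, Per2, Dbp, Hlf and Tef, as in Tsc22d3 and no other member, all 3 CPIP+EA libraries lay below the other 6. The same held for Glul and Crebbp, which are outside the clock list. All CPIP+EA libraries lay below CPIP for 3.4% of all genes and below Sham for 7.32%. The share below both was not computed.

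Prx, which encodes a protein of myelinating Schwann cells, had 175.71, 206.6 and 242.65 FPKM in Sham, 253.85, 242.27 and 158.68 in CPIP rats, followed by 110.22, 137.02 and 194.04 in CPIP+EA rats. It was highest in CPIP replicate 1, followed by Sham replicate 3 and CPIP replicate 2, and Sgk1 and Errfi1 were low in Sham replicate 3. Its log2 fold change between CPIP+EA and CPIP was -0.58 (unadjusted limma p of 0.0368, adjusted p of 0.996). Fibroblast markers (Dcn, Lum, Col1a1, Pdgfra and Col3a1) summed to 951.33 to 1272.33 FPKM in Sham, 809.99 to 1079.75 in CPIP and 538.2 to 1077.19 in CPIP+EA. All 5 had log2 fold changes below 0 in the 3 comparisons, with medians of -0.22 between CPIP and Sham, -0.31 between CPIP+EA and CPIP and -0.64 between CPIP+EA and Sham. In the last, the unadjusted limma p was under 0.05 for 4 of the 5 (Lum, Col1a1, Col3a1 and Pdgfra), where 5.63% of all genes did in that direction, and 0 passed the threshold (smallest adjusted p of 0.0839, for Lum). CPIP+EA replicate 3, at 1077.19 FPKM, lay within the Sham range of the sum.

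The sums of the other cell type lists overlapped between CPIP and CPIP+EA. Sensory neuron markers summed to 5154.17 to 6129.04 FPKM in Sham, 5774.5 to 6290.65 in CPIP and 5533.52 to 6762.24 in CPIP+EA, and satellite glia markers to 3716.85 to 3845.92, 3895.28 to 4230.03 and 4139.19 to 4324.88. In the same order of groups, macrophage markers summed to 39.54 to 47.4, 43.72 to 53.09 and 44.29 to 67.85 FPKM, and endothelial markers to 43.44 to 64.41, 49.66 to 62.34 and 47.19 to 67.25. Erythroid markers summed to 1085.68 to 3315.73, 563.43 to 2154.21 and 626.4 to 5025.66 FPKM, and neutrophil markers to 46.98 to 141.8, 30.83 to 235.54 and 61.53 to 588.64. Without CPIP+EA replicate 3, which had the highest sums of the macrophage, endothelial, erythroid and neutrophil lists, the log2 fold changes between CPIP+EA and CPIP were -0.37 for Dusp1, -0.60 for Sgk1 and -0.59 for Errfi1.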

How the data were processed

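Total RNA of ipsilateral L4-6 DRGs was sequenced as poly(A)-selected libraries on the BGISEQ-500 with single-end reads of 50 bases, and reads were filtered with SOAPnuke (version 1.5.2) by the authors. The aligner, counter, genome build and annotation are not given in the sources used here. The authors deposited 1 table with the FPKM of 20413 genes in the 9 libraries, rounded to 2 decimals. The deposited table also held the authors' own log2 ratios and p-values and q-values of their comparisons, which were not used. Because FPKM are not counts, no count test was run, and 0 columns of values were left unmapped.

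FPKM were taken as log2(FPKM + 0.5), and the 17187 genes with a mean of at least 0.1 FPKM were fitted with limma 3.58.1 (R 4.3.3) in 1 model of 3 groups with a mean-variance trend, after tests on simulated data. P-values were adjusted by the Benjamini-Hochberg method over all genes. Correlations used exact permutation tests (Python 3.11.15, scipy 1.17.1). Promoter windows came from RefSeq, assembly GRCr8, matched by the gene ID of the deposited table.

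The members, gene lists and tests were chosen with earlier results of these data known. All members were named, as were genes of the other lists that passed the threshold or had an unadjusted p under 0.05 (at most the 4 smallest per list and comparison), marker genes, and the 5 genes most alike in pattern. Alternatives changed the pseudocount, filter, scaling, trend, samples fitted, replicate block and each single library. The labels give each library as a separate replicate, and the study drew 3 rats per group. Mt1a and Bmal1 in the lists are, in RefSeq, other symbols of Mt1 and Arntl, and each gene was counted once. Some genes of the companion lists are not reported here.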

Additional observations from a re-analysis of the deposited data

How the results depend on the processing

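Of 597 alternative values of the members' log2 fold changes, 574 kept their direction and side of the threshold, and 0 members passed the threshold under any alternative. The other 23 reversed, each with 1 library left out. The ranges over those fits were, between CPIP and Sham, -0.0365 to 0.0445 for Nr3c1, -0.13 to 0.0439 for Fkbp5, -0.0531 to 0.13 for Tsc22d3, -0.0768 to 0.17 for Zbtb16, -0.0923 to 0.28 for Pdk4 and -0.0744 to 0.18 for Klf9. In CPIP+EA against CPIP they were -0.12 to 0.0090 for Nr3c1 and -0.24 to 0.21 for Hif3a, and between CPIP+EA and Sham -0.13 to 0.0066 for Nr3c1, -0.18 to 0.25 for Sgk1 and -0.14 to 0.12 for Dusp1. With 1 library left out, the count of members at an unadjusted limma p under 0.05 ran from 0 to 3 between CPIP and Sham, from 0 to 4 between CPIP+EA and CPIP, from 0 to 1 between CPIP+EA and Sham and from 0 to 3 in the F test. Between CPIP and Sham it was 3 without Sham replicate 2 or CPIP replicate 3 (Sgk1, Errfi1 and Dusp1) and 0 without Sham replicate 1 or 3 or CPIP replicate 1 or 2. In CPIP+EA against CPIP it was 4 without Sham replicate 2 or CPIP replicate 3, 0 without CPIP replicate 1 or CPIP+EA replicate 3, and, in place of 2, 1 with no trend and 4 with only the 2 groups compared. The 4 correlated pairs became 1 without the 2 farthest libraries, 0 as deviations from the group means, and 0 (without CPIP replicate 1) to 5 (without Sham replicate 2) with 1 library left out. The cause of these shifts was not tested. Hif3a could not be tested at a minimum of 1 FPKM.

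Libraries with the same replicate number did not deviate together, with correlations of their deviations from -0.24 to 0.30, so that the numbers were not taken to pair the rats. With the replicate block, the unadjusted limma p between CPIP and Sham was under 0.05 for 2 members in place of 1, and the genes past the threshold fell to 26 from 61 between CPIP and Sham and to 42 from 83 between CPIP+EA and Sham.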
